A study of Bos indicus with 9 samples.

Results

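The subject is 10 chemokines of the bovine corpus luteum, CCL2, CCL3, CCL4, CCL5, CCL8, CCL20, CXCL2, CXCL5, CXCL8 and CXCL12. They were taken by gene symbol from the array's probe table, with every probe set of each gene, which gave 13 probe sets among 23961 tested (10 of 9135 genes with a symbol of their own). CCL3 has 3 probe sets, CCL2 has 2 and the other genes have 1 each. The tissue came from Nelore crossbred cows (Bos indicus) aged 2 to 5 years, 3 animals per group, slaughtered on day 6 after ovulation, and each animal was measured on 1 Affymetrix array. All cows, controls included, were synchronised with progesterone devices and estradiol benzoate. Superovulated cows were given 2000 IU of equine chorionic gonadotropin (eCG, a mare placental hormone with follicle-stimulating and luteinising activity in cattle) on day 4 of synchronisation, stimulated cows were given 400 IU on day 8, and control cows were given none. Dose and day of eCG differ together, so their effects cannot be told apart, and the sources used here do not say which gland of a superovulated cow was taken.

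Chemokines are small secreted proteins that draw leukocytes out of the blood through G protein-coupled receptors. The CXC chemokines with a glutamate-leucine-arginine motif, among them CXCL2, CXCL5 and CXCL8, act mainly on neutrophils. CCL2 and CCL8 act on monocytes, CCL3, CCL4 and CCL5 on monocytes, T cells and natural killer (NK) cells, CCL20 on cells that carry CCR6, and CXCL12 is a stromal chemokine that retains cells carrying CXCR4. In the ruminant corpus luteum, leukocytes enter both while the gland forms and when it regresses, and CCL2 and CXCL8 are well known there as luteal attractants of monocytes and neutrophils.

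Signals are log2 values, and signals were set against each other only within a probe set, across animals. The commonest probe set means lay between 2.5 and 2.75, and 18.6% of probe sets had a mean below 2.5, the level called near background here. The luteal identity of the glands was clear in each of the 9 arrays. STAR, which carries cholesterol into mitochondria, had 14.55 to 14.81 in superovulated, 14.76 to 14.80 in stimulated and 14.63 to 14.84 in control glands. Arrays correlated with each other at 0.986 to 0.994 across probe sets. Superovulated replicate 2 was the highest array for 6 of the 13 chemokine probe sets, with both CCL2 probe sets among the 6. Of all tested probe sets it was the highest array for 14.3% and the lowest for 14.7%. Stimulated replicate 1 was the highest array for 4 of the 13, against 10.6% of all tested probe sets. Control replicate 1 was the lowest array for 4 of the 13, against 9.73% of all tested probe sets. Chemokine results that rest on superovulated replicate 2 are given with and without it. In bulk tissue, fewer cells of a type and less RNA per cell cannot be told apart.

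Near background were CCL20, with signals of 2.06 to 2.29 over the 9 glands, and 1 CCL3 probe set, Bt.9974.2.S1_at, with 1.79 to 1.96. CXCL2 had 1.93 to 2.67 in 8 glands and left this range only in superovulated replicate 2. CXCL8 had 2.42 to 3.61 in 8 glands. CCL2 and CXCL5 were well above this level in all 9 glands. For the dim genes the size of a fold change depends on the array's background.

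**Figure D1:**
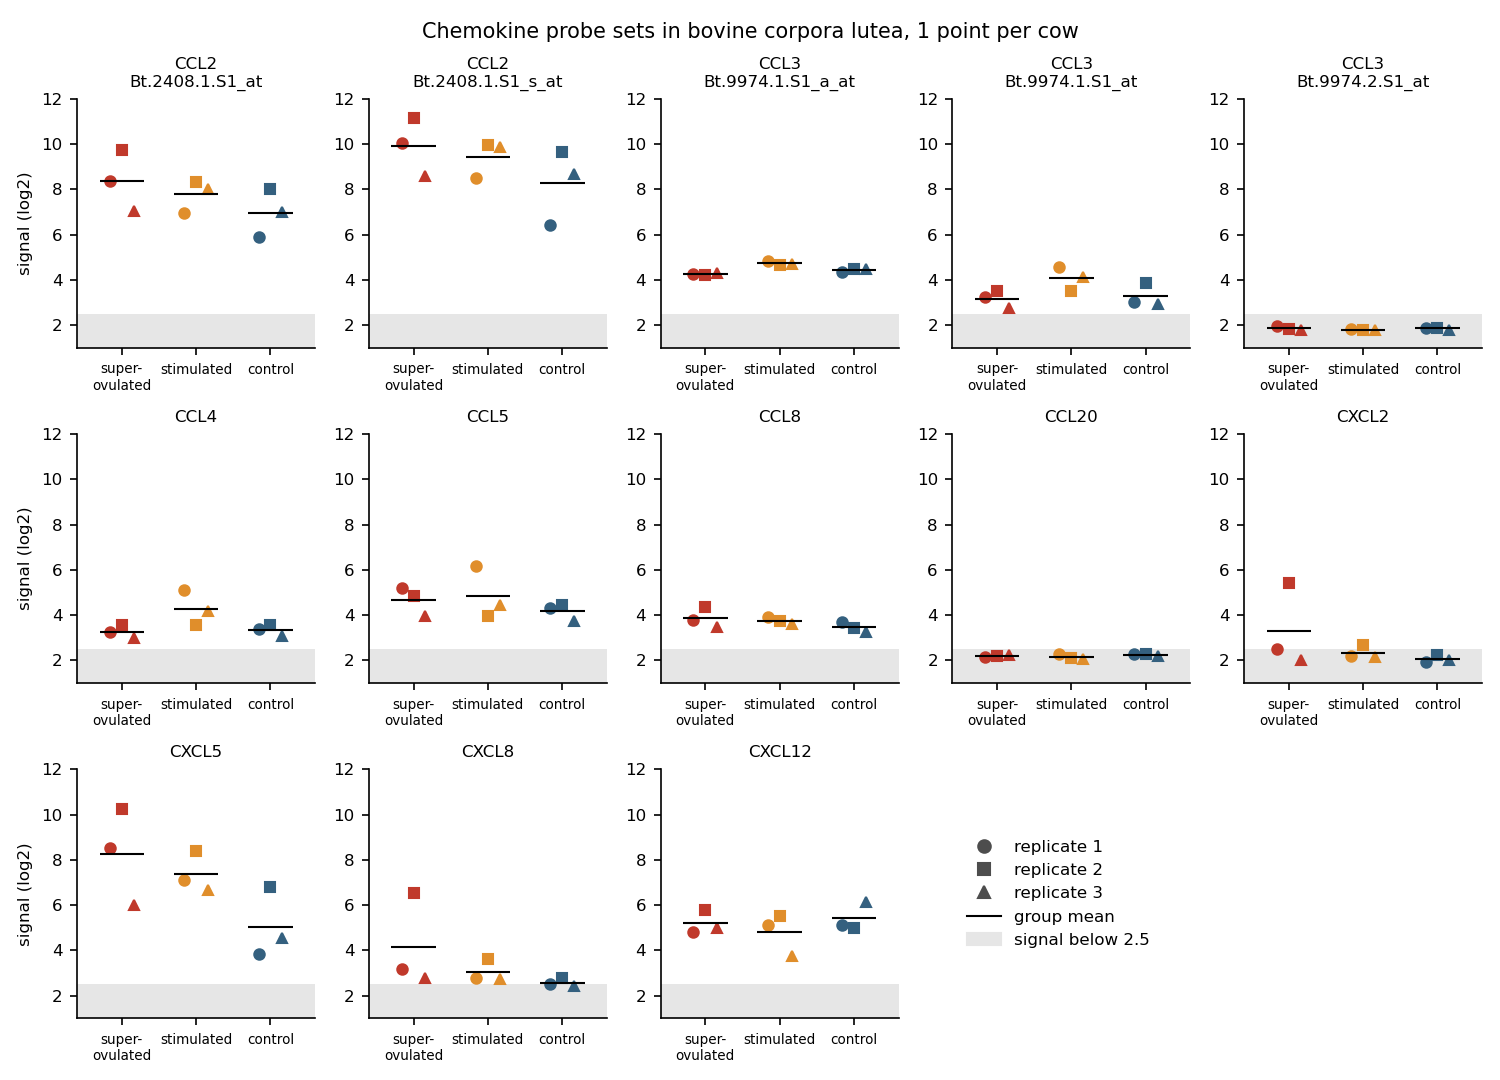
Signal of each of the 13 chemokine probe sets (log2, vertical axis) in superovulated, stimulated and control corpora lutea, with 1 point per cow, the marker shape giving the replicate number, a bar for the group mean and grey for signals below 2.5. Superovulated replicate 2 reached 10.26 for CXCL5, 6.52 for CXCL8 and 5.43 for CXCL2, the highest value of each of these probe sets, and CCL20 stayed inside the grey band in every gland.

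No chemokine probe set passed the test in any comparison. The test was limma's moderated test, adjusted by Benjamini-Hochberg over all 23961 probe sets with a threshold of 0.05. For superovulated against control glands 0 of the 13 passed, against 0% of all tested probe sets. At an unadjusted p under 0.05 in limma, 1 of the 13 was higher and 1 lower, against 6.21% of all probe sets (2.6% higher and 3.60% lower). For stimulated against control glands 0 passed, against 0.00417% of all probe sets, and at an unadjusted p under 0.05 in limma 2 were higher and 0 lower, against 6.40% (3.67% higher and 2.73% lower). For superovulated against stimulated glands 0 passed, against 0.00417%, and at an unadjusted p under 0.05 in limma 0 were higher and 3 lower, against 9.62% (4.04% higher and 5.58% lower). Groups did not overlap for 1 of the 13 in each comparison, against 10.9%, 11.5% and 13.5% of all probe sets in the same order. In all of these the probe set was the same one of CCL3. Log2 fold changes were above 0 for 7, 10 and 9 of the 13, against 50.8%, 48.8% and 51.3% of all probe sets. Their medians were 0.43, 0.47 and 0.13, and those of all tested probe sets 0.0022, -0.0039 and 0.0053. The median for superovulated against control glands depended on which animal was left out. It was 0.20 without superovulated replicate 2 and 0.63 without superovulated replicate 3. For superovulated against stimulated glands the median was -0.11 without superovulated replicate 2 and 0.33 without superovulated replicate 3. Both eCG groups are compared with the same 3 control cows.

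**Figure D2:**
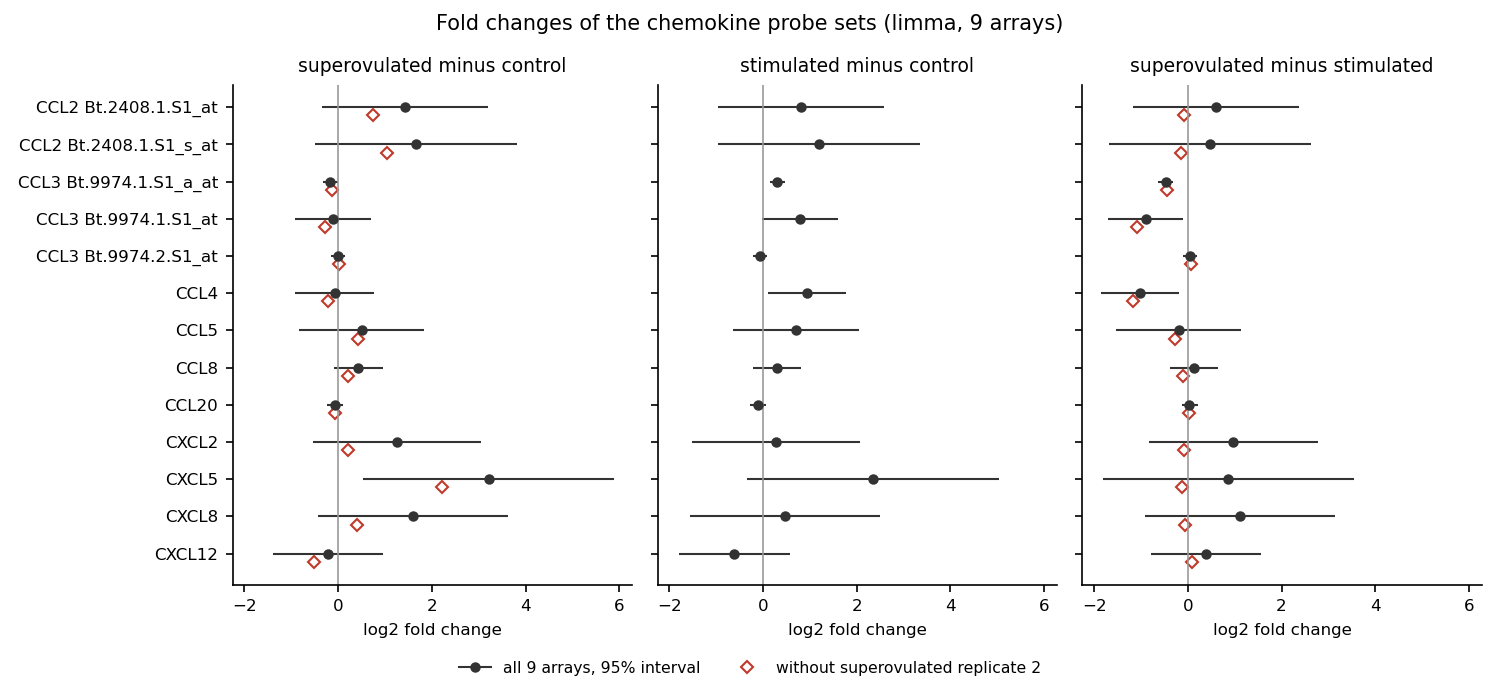
Log2 fold change (horizontal axis) of the 13 chemokine probe sets in the 3 comparisons, with 95% intervals from the limma fit of 9 arrays (filled circles) and, in the comparisons with superovulated glands, the value without superovulated replicate 2 (open diamonds). The widest intervals are those of CXCL5, from 0.52 to 5.89 for superovulated minus control, and without that animal the values of CXCL5, CXCL8 and CXCL2 for superovulated minus stimulated stand at -0.13, -0.063 and -0.081.

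CXCL5, a neutrophil attractant, had the widest spread and, against control glands, the largest fold changes of the 10 chemokines. Its signal was 8.53, 10.26 and 5.99 in superovulated glands, 7.12, 8.40 and 6.67 in stimulated glands, and 3.82, 6.80 and 4.54 in control glands. In each eCG group 2 of the 3 glands lay above the highest control, control replicate 2, and the third lay below it, so the groups overlapped. The log2 fold change was 3.21 for superovulated against control glands (SE 1.16, 95% interval 0.52 to 5.89, limma adjusted p = 0.799). Without superovulated replicate 2 it was 2.21 (limma adjusted p = 0.927), and without superovulated replicate 3 it was 4.34 (limma adjusted p = 0.619). For stimulated against control glands it was 2.34 (SE 1.16, 95% interval -0.34 to 5.03, limma adjusted p = 0.804), and it ran from 1.73 without control replicate 1 to 3.21 without control replicate 2. Superovulated and stimulated glands differed by 0.86 (95% interval -1.82 to 3.55), so the data bound that difference only loosely.

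CXCL8, the classical neutrophil attractant (interleukin 8), had 3.17, 6.52 and 2.80 in superovulated glands, 2.80, 3.61 and 2.74 in stimulated glands, and 2.5, 2.80 and 2.42 in control glands. A single gland, superovulated replicate 2, was high, and the other 8 lay between 2.42 and 3.61. The log2 fold change for superovulated against control glands was 1.59 with that animal (SE 0.88, limma adjusted p = 0.830) and 0.41 without it (limma adjusted p = 0.938). For stimulated against control glands it was 0.47 (95% interval -1.56 to 2.5).

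CXCL2, a close relative of CXCL8 that shares its receptor CXCR2, was likewise high in superovulated replicate 2 alone. Its signal was 2.49, 5.43 and 2.04 in superovulated glands, 2.20, 2.67 and 2.17 in stimulated glands, and 1.93, 2.25 and 2.03 in control glands. The log2 fold change for superovulated against control glands was 1.25 (limma adjusted p = 0.850) and was 0.20 without superovulated replicate 2. The probe set of CXCL3, a paralog of CXCL2, had 2.28 in that animal and 2.03 to 2.90 in the other 8 (CXCL3 was named after its values were seen), and cross-hybridisation between such paralogs was not tested.

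CCL2, the main monocyte attractant, was measured by 2 probe sets, both highest in superovulated replicate 2 and lowest in control replicate 1. The brighter one, Bt.2408.1.S1_s_at, had 10.05, 11.14 and 8.58 in superovulated glands, 8.51, 9.98 and 9.87 in stimulated glands, and 6.44, 9.67 and 8.68 in control glands. All groups overlapped. The other probe set, Bt.2408.1.S1_at, had 8.36, 9.74 and 7.06 in superovulated, 6.98, 8.34 and 8.02 in stimulated, and 5.91, 8.00 and 6.99 in control glands. In superovulated against control glands the log2 fold changes of the brighter and the dimmer probe set were 1.66 (SE 0.93) and 1.42 (SE 0.76), with limma adjusted p values of 0.836 and 0.828. Without superovulated replicate 2 they were 1.05 and 0.74, and without control replicate 1 they were 0.75 and 0.89. In stimulated against control glands they were 1.19 and 0.81, and without control replicate 1 they were 0.28 and 0.29. The 95% intervals of the full comparison ran from -0.97 to 3.35 and from -0.96 to 2.58.

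CCL8, a second monocyte attractant, varied over a smaller range, with 3.81, 4.36 and 3.49 in superovulated glands, 3.94, 3.75 and 3.60 in stimulated glands, and 3.72, 3.42 and 3.24 in control glands. The log2 fold changes were 0.43 for superovulated (SE 0.22, limma adjusted p = 0.823) and 0.30 for stimulated (SE 0.22, limma adjusted p = 0.879) against control glands. Without superovulated replicate 2 the first of these was 0.20.

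CCL3, which attracts macrophages and lymphocytes, gave the smallest p among the chemokines, through a difference of small size. Its brightest probe set, Bt.9974.1.S1_a_at, had 4.26, 4.21 and 4.31 in superovulated glands, 4.82, 4.67 and 4.71 in stimulated glands, and 4.34, 4.48 and 4.48 in control glands. The 3 groups did not overlap, with stimulated glands highest and superovulated glands lowest. Superovulated and stimulated glands differed by a log2 fold change of -0.47 (SE 0.071, 95% interval -0.64 to -0.31, limma adjusted p = 0.214). The fold change was -0.17 for superovulated (limma adjusted p = 0.800) and 0.30 for stimulated (limma adjusted p = 0.526) against control glands. In the moderated F test over the 3 groups this probe set had a limma adjusted p of 0.338.

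The other CCL3 probe sets differed from it. Bt.9974.1.S1_at had 3.24, 3.51 and 2.75 in superovulated glands, 4.57, 3.51 and 4.14 in stimulated glands, and 3.03, 3.87 and 2.93 in control glands. Its fold change for superovulated against stimulated glands was -0.90 (95% interval -1.71 to -0.095, limma adjusted p = 0.489), in the same direction, but the groups overlapped. Bt.9974.2.S1_at, near background, had 0.054 (95% interval -0.097 to 0.20).

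CCL4, whose gene neighbours that of CCL3 in mammals, had its highest signals in stimulated glands. It had 3.24, 3.55 and 3.0 in superovulated glands, 5.11, 3.55 and 4.19 in stimulated glands, and 3.37, 3.58 and 3.07 in control glands. Stimulated replicates 1 and 3 lay above all other glands, and stimulated replicate 2 lay within the range of the superovulated and control glands. The log2 fold changes were -1.02 for superovulated against stimulated glands (SE 0.36, limma adjusted p = 0.465) and 0.94 for stimulated against control glands (SE 0.36, limma adjusted p = 0.759). Without stimulated replicate 1 they were -0.61 and 0.53. For superovulated against control glands it was -0.075 (95% interval -0.92 to 0.77).

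CCL5, made by T and NK cells among others, had 5.21, 4.84 and 3.96 in superovulated glands, 6.19, 3.95 and 4.45 in stimulated glands, and 4.31, 4.43 and 3.76 in control glands. Stimulated replicate 1 was the highest gland. The log2 fold change for stimulated against control glands was 0.70 (SE 0.58, limma adjusted p = 0.884) with this animal and 0.035 without it. For superovulated against control glands it was 0.51 (95% interval -0.83 to 1.84).

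CXCL12, the stromal chemokine, had 4.82, 5.78 and 4.99 in superovulated glands, 5.13, 5.53 and 3.77 in stimulated glands, and 5.13, 5.00 and 6.13 in control glands. The groups overlapped, control replicate 3 was the highest gland and stimulated replicate 3 the lowest. The log2 fold changes were -0.22 for superovulated and -0.61 for stimulated against control glands, with 95% intervals of -1.40 to 0.96 and -1.79 to 0.57. CCL20, the ligand of CCR6, had fold changes of -0.064 and -0.10 at its near-background signal.

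CXCL5, CXCL8, CXCL2 and CCL2 had their highest signal in replicate 2 of each group, among superovulated, stimulated and control glands alike. The replicate 2 arrays also had the most negative difference between the 3′ and 5′ actin control probes in their groups. This difference is a check of RNA quality, and a more negative value means more signal at the 5′ end. This difference was -0.637 in superovulated replicate 2, against -0.209 and -0.345 in the other superovulated arrays. It was -0.457 in stimulated replicate 2, against -0.345 and -0.285, and -0.528 in control replicate 2, against -0.22 and -0.249. The same difference for GAPD ran from -0.084 to 0.021 over the 9 arrays, with no replicate 2 array at either end. Within groups, replicate 2 was the most negative for GAPD in superovulated glands alone (-0.039). For EF1a, replicate 2 was the most negative in superovulated (-1.826) and stimulated glands (-1.769). In control glands it had -1.833 for EF1a, against -1.9 in control replicate 3. The part of RNA quality in the chemokine values was not tested.

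Pearson and Spearman correlations over the 9 cows were computed for all 45 pairs of the 10 genes, by the brightest probe set of each, with exact 2-sided permutation p values adjusted by Benjamini-Hochberg over the 45 pairs. These p values treat the 9 arrays as exchangeable, although replicate numbers are shared between groups. CXCL2 was below 2.5 in 7 of the 9 glands, so no correlation is given for it. CCL2 and CXCL5 had r = 0.880 (exact permutation p = 0.00199, adjusted 0.0224) and rho = 0.800 (exact permutation p = 0.0138, adjusted 0.124). CXCL8 and CXCL5 had r = 0.790 (exact permutation p = 0.000231, adjusted 0.00347) and rho = 0.870 (exact permutation p = 0.00368, adjusted 0.0552). Neither rank correlation passed the adjustment, and CXCL8 was at 2.42 to 3.61 in 8 glands. Without superovulated replicate 2, r was 0.826 for CCL2 with CXCL5 and 0.866 for CXCL8 with CXCL5. Without the 2 animals farthest from the median of CCL2, r was 0.688 for CCL2 with CXCL5. Without the 2 farthest from the median of CXCL5, r was 0.878 for CXCL8 with CXCL5. As deviations from the group means, r was 0.833 for CCL2 with CXCL5 and 0.756 for CXCL8 with CXCL5. The replicate number means were then taken out as well, in a calculation added after seeing the data. With both sets of means out, r was 0.970 for CCL2 with CXCL5 and 0.347 for CXCL8 with CXCL5. Few degrees of freedom remain in that calculation, and the difference between its r values was not tested. CCL3 and CCL4 had r = 0.764 (exact permutation p = 0.00851, adjusted 0.0766) and rho = 0.594 (exact permutation p = 0.0981, adjusted 0.340), which fail the adjustment, and the r of their deviations from group means was 0.408. The medians of the 9 arrays over all tested probe sets ran from 4.18 to 4.24.

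**Figure D3:**
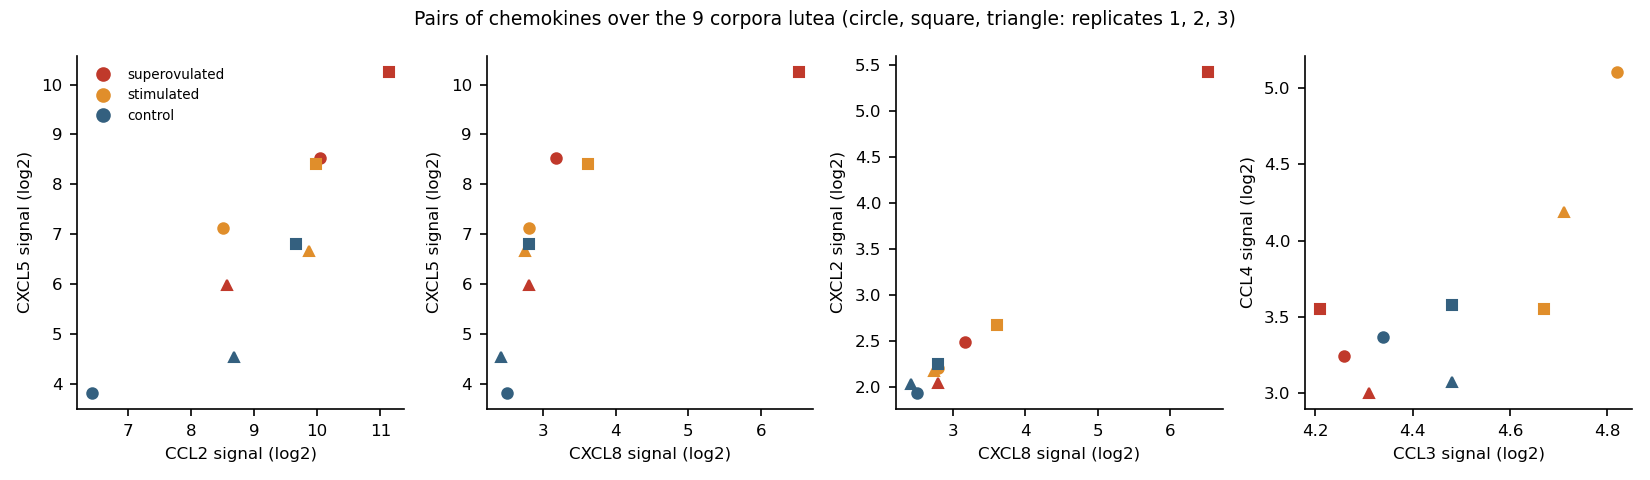
Signals (log2, both axes) of 4 pairs of chemokines in the 9 corpora lutea, coloured by group, with the marker shape giving the replicate number. CXCL5 runs with CCL2 and with CXCL8 over the 9 points, superovulated replicate 2 lies far from the others for CXCL8 (6.52) and CXCL2 (5.43), and in the pair of CCL3 and CCL4 the 3 stimulated glands lie to the right of all others.

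The genes whose pattern over the 9 arrays was nearest to that of CXCL5 were PRND, CD14 and PF4. CD14 is a product of monocytes, and PF4, a product of platelets, is itself a chemokine and is in the list of other chemokines below. Nearness was the root mean square difference of signals after centring each gene on its own mean, over 9 arrays, and it was 0.50, 0.72 and 0.95 on the log2 scale. PRND had 8.38, 10.31 and 6.18 in superovulated, 7.70, 8.98 and 6.65 in stimulated, and 4.30, 8.43 and 4.76 in control glands. CD14, a lipopolysaccharide coreceptor, had 7.07, 9.19 and 6.23 in superovulated, 5.22, 8.23 and 5.93 in stimulated, and 4.07, 6.78 and 3.56 in control glands. Nearest to CCL2 were ANXA3 (0.53), PALMD (0.64) and GUCA1A (0.69), and nearest to CXCL12 were GSTT1 (0.33), GPD2 (0.34) and C1QTNF1 (0.35).

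Of the receptors, 12 of 23 listed genes had a probe set of their own, and none of the probe sets used here carries the symbol of CCR1, CCR2, CCR6 or CXCR2. With limma 0 of the 12 passed in any comparison and 0 had an unadjusted p under 0.05, against 6.21% to 9.62% of all probe sets. Their median log2 fold changes were -0.042 for superovulated and -0.061 for stimulated against control glands. Most of these receptors were dim: 3 of the 12 were near background, and all but CXCR4 and ACKR3 had means of 2.02 to 3.37. CXCR4, the signalling receptor of CXCL12, had 7.43, 9.46 and 7.15 in superovulated glands, 8.44, 9.02 and 8.84 in stimulated glands, and 5.90, 10.80 and 5.90 in control glands. Control replicate 2 was the highest gland and the other controls were the lowest. ACKR3, which takes up CXCL12 without G protein signalling, spread from 9.07 to 10.94 in superovulated, 9.84 to 10.31 in stimulated and 9.08 to 11.64 in control glands, and its highest gland was again control replicate 2. CXCR1, a receptor of CXCL8, had 2.47 to 3.19 over the 9 glands. The eosinophil receptor CCR3 and ACKR1, which binds many inflammatory chemokines on venules, stayed near background at 2.17 to 2.43 and 2.29 to 2.40.

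Of the other chemokines 17 of 28 listed were measured, and 6 of the 17 were near background. With limma 0 of the 17 passed in any comparison. Over all probe sets, 2.6% were higher in superovulated and 3.67% in stimulated against control glands at an unadjusted p under 0.05 in limma. Of the 17, 1 was higher in each of these comparisons, CCL14 in both. This chemokine, which acts on monocytes in humans, had 10.07, 10.09 and 10.33 in superovulated, 10.68, 10.67 and 10.54 in stimulated, and 9.09, 10.21 and 9.06 in control glands. The stimulated glands lay above all controls, with a log2 fold change of 1.18 (limma adjusted p = 0.526), and the superovulated glands overlapped with control, with 0.71 (limma adjusted p = 0.800).

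Genes that induce chemokines were listed as 16 cytokine, receptor and NF-kappa-B genes, of which 15 were measured and 0 passed with limma in any comparison. The cytokines of this list, IL1A, IL1B, TNF, IL6, IL17A and IFNG, were dim, at 2.06 to 3.5 over the 9 glands. They were named after their values were seen. Over all probe sets, 2.6% were higher in superovulated and 3.67% in stimulated against control glands at an unadjusted p under 0.05 in limma. Of the 15 genes, 1 was higher in each of these comparisons and 0 were lower. This gene was TLR2, a receptor of bacterial lipoproteins, with 7.14, 7.59 and 6.70 in superovulated, 6.49, 7.84 and 7.12 in stimulated, and 5.62, 6.80 and 5.76 in control glands, and fold changes of 1.09 in both comparisons (limma adjusted p = 0.800 and 0.773). NFKBIA, an inhibitor of NF-kappa-B and one of its own targets, had 7.72, 8.32 and 7.55 in superovulated, 7.62, 9.10 and 7.55 in stimulated, and 6.96, 7.46 and 7.04 in control glands. Neither eCG group overlapped with control for NFKBIA, and its fold changes of 0.71 and 0.94 did not pass (limma adjusted p = 0.845 and 0.782). Of the 15 genes, 1 lay above all controls in superovulated and 4 in stimulated glands, against 5.18% and 5.79% of all probe sets.

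Adhesion molecules, which hold leukocytes to the vessel wall, were measured for 10 of 12 listed genes, and 0 passed with limma in any comparison. At an unadjusted p under 0.05 in limma, 2 were higher in superovulated and 1 in stimulated against control glands (2.6% and 3.67% of all probe sets). In superovulated against stimulated glands 1 was higher and 1 lower (4.04% and 5.58%). P-selectin (SELP) had 4.37, 4.23 and 3.81 in superovulated, 3.13, 4.10 and 3.30 in stimulated, and 3.30, 3.40 and 3.51 in control glands, with a fold change of 0.73 for superovulated against control (limma adjusted p = 0.795). CD44, a hyaluronan receptor, had 7.66, 9.37 and 7.43 in superovulated, 5.97, 8.67 and 6.61 in stimulated, and 5.37, 7.01 and 5.72 in control glands, with 2.12 (limma adjusted p = 0.800). The leukocyte integrin subunit ITGB2 had 6.27, 7.29 and 6.03 in superovulated, 6.86, 6.93 and 6.89 in stimulated, and 5.67, 6.27 and 5.16 in control glands. The stimulated glands lay above all controls for ITGB2, with 1.19 (limma adjusted p = 0.685).

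Markers of the leukocytes that these chemokines draw differed from list to list. Of 10 monocyte and macrophage markers 8 were measured, and all 8 had log2 fold changes above 0 in both comparisons with control. Over all probe sets 50.8% were above 0 for superovulated and 48.8% for stimulated against control glands. The list was chosen with earlier results of these data known. At an unadjusted p under 0.05 in limma 3 were higher in superovulated and 7 in stimulated against control glands (2.6% and 3.67% of all probe sets). In superovulated against stimulated glands 0 were higher and 3 lower (4.04% and 5.58%), and 0 passed the adjustment in any comparison. Their mean signal per array was 6.08 to 7.36 in superovulated, 6.63 to 7.81 in stimulated and 4.87 to 6.15 in control glands. AIF1, a cytoplasmic protein of macrophages, had log2 fold changes of 1.63 in superovulated and 1.73 in stimulated against control glands (limma adjusted p = 0.638 and 0.460). FCGR3A, an antibody receptor of macrophages and NK cells, had 3.50, 3.74 and 3.47 in superovulated, 4.50, 4.33 and 4.57 in stimulated, and 3.67, 3.28 and 3.22 in control glands. As for the brightest CCL3 probe set, its stimulated glands lay above all others, with a log2 fold change of -0.90 for superovulated against stimulated glands (limma adjusted p = 0.214).

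Neutrophil markers, 8 of 10 measured, had a mean signal of 5.21 to 5.67 in superovulated, 4.17 to 4.57 in stimulated and 5.04 to 5.77 in control glands. The stimulated glands lay below all others. At an unadjusted p under 0.05 in limma 0 were higher and 1 lower in superovulated against control glands (2.6% and 3.6% of all probe sets). In stimulated against control glands 1 was higher and 3 lower (3.67% and 2.73%). In superovulated against stimulated glands 3 were higher and 0 lower (4.04% and 5.58%), and 0 passed the adjustment in any comparison. S100A9, which pairs with S100A8 in a neutrophil calcium-binding complex, had 9.54, 10.32 and 9.44 in superovulated, 6.30, 5.00 and 5.24 in stimulated, and 7.81, 9.27 and 10.17 in control glands. Its fold change for superovulated against stimulated glands was 4.25 (limma adjusted p = 0.178). MPO and ELANE, enzymes of neutrophil granules, stayed between 2.33 and 2.81 in all 9 glands (MPO was named after its values were seen). The list mean of superovulated replicate 2, the gland with the highest CXCL8, was 5.67, below the 5.77 of control replicate 3. Its S100A9 and S100A12 were the highest of the 9 glands, and its LTF (3.05) and MPO (2.42) were the lowest. S100A12 and LTF were named after their values were seen. Stimulated replicate 2, with CXCL8 at 3.61, had the lowest S100A9. MMP9 was lower than in control glands in superovulated (log2 fold change -1.05, limma adjusted p = 0.638) and stimulated glands (-1.42, limma adjusted p = 0.257).

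T and NK cell markers, all 10 measured, had a mean of 3.26 to 3.61 in superovulated, 3.45 to 4.41 in stimulated and 3.15 to 3.59 in control glands. The highest array was stimulated replicate 1, the one with the highest CCL4 and CCL5. CD3D, CD3E, CD3G, CD2, CD8A and GZMB peaked there. NKG7 peaked in stimulated replicate 2 (3.83) and GNLY in stimulated replicate 3 (6.73). LCK (6.28) and CD4 (2.44) peaked in control replicates 1 and 2, and both had lower means in stimulated than in control glands. The CD3 genes, GZMB, LCK and CD4 were named after their values were seen. CD8A, the coreceptor of cytotoxic T cells, had 3.29, 3.19 and 2.48 in superovulated, 5.13, 3.18 and 3.76 in stimulated, and 2.73, 3.15 and 2.52 in control glands. Of the 10 markers, 0 passed with limma. At an unadjusted p under 0.05 in limma 0 were higher in superovulated and 3 in stimulated against control glands (2.6% and 3.67% of all probe sets). In superovulated against stimulated glands 0 were higher and 1 lower (4.04% and 5.58%). Fibroblast and pericyte markers, all 6 measured, had means of 10.50 to 11.55 in superovulated, 9.99 to 10.96 in stimulated and 10.56 to 10.78 in control glands, and superovulated replicate 2 was the highest. In that gland PDGFRA, a fibroblast receptor, had 11.14, against 6.09 to 9.25 in the other 8. Endothelial markers had means of 6.66 to 6.91 in superovulated, 6.73 to 7.16 in stimulated and 6.26 to 7.22 in control glands. Of eosinophil markers CCR3 alone was measured, near background. The part of these cell types in the chemokine values was not tested.

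**Figure D4:**
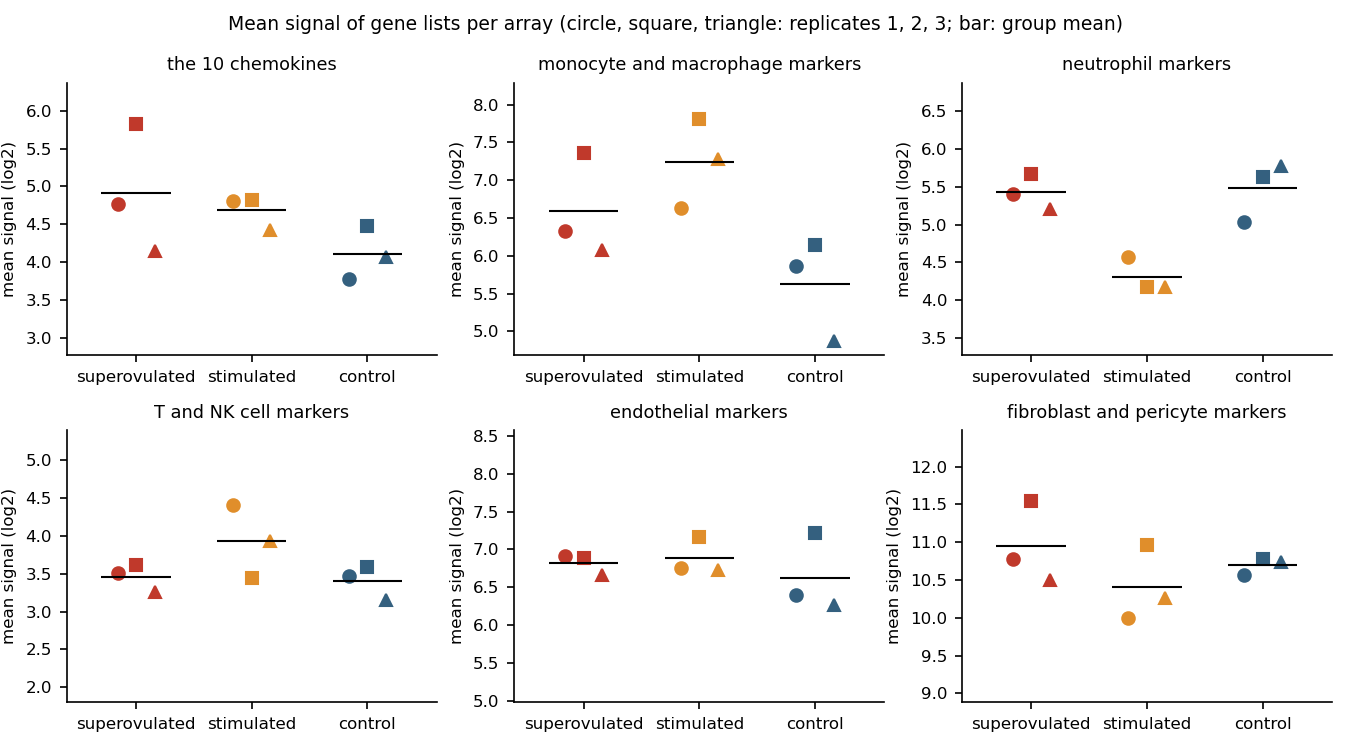
Mean signal (log2, vertical axis) of the 10 chemokines and of 5 lists of cell type markers per array, in superovulated, stimulated and control corpora lutea, with 1 point per cow and a bar for the group mean. Superovulated replicate 2 is the highest point for the chemokines (5.83) and for the fibroblast and pericyte markers (11.55), and the 3 stimulated glands are the lowest for the neutrophil markers.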

How the data were processed

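Biotinylated cRNA of 1 cow was hybridised to each Affymetrix array, per the labels' protocols. The deposited values are digit runs without a decimal mark, and they are read here as log2 signals. The sources used here do not state how the authors summarised and normalised probes or which log base they used, and the planned design had assumed values with their decimal mark. The mark has 1 place in runs that start with 0 or with 2 to 9, given a log2 limit of 16. Other runs (15.5% of cells) were settled by the probe set's other arrays or, where all 9 were open, by the spread between arrays at a posterior probability of 0.95. This left 56 of 24128 probe sets undecided, and these and 112 array controls were left out. No chemokine probe set was open on all arrays.

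Gene symbols are those of the platform's probe annotation, which can be old. Of the 10 symbols, 5 are also listed by RefSeq for NIAB-ARS_B.indTharparkar_mat_pri_1.0. Each probe set was fitted with limma 3.58.1 (R 4.3.3) on 9 arrays, with 1 mean per group, 6 residual degrees of freedom and 2-sided tests. On simulated data for stimulated against control glands (23961 probe sets), limma called 76% of 100 probe sets with a true log2 difference of 1. It called 84% of 100 with a difference of 2, and 8 unchanged probe sets. The changed probe sets were drawn at random from all probe sets, each with its own spread. These shares therefore do not apply to CXCL5, CXCL8, CXCL2 and CCL2, whose fold changes had SEs of 0.76 to 1.16. List genes stand for their probe set of highest mean. Besides the chemokines, the genes named are the listed receptors and up to 4 genes per list with the smallest p, and for chemokines of mean 5 or more and SD 0.5 or more the 3 nearest genes. The chemokines and lists were chosen with earlier results of these data known. The number of arrays limits the precision.

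Replicate numbers are shared by the groups. For superovulated and stimulated arrays the deviations of same-numbered animals correlated at 0.202, 0.375 and 0.153, all over 0.1. With control arrays they correlated at 0.084, 0.345 and 0.156 for superovulated and 0.16, 0.278 and -0.031 for stimulated animals. Differently numbered animals reached 0.25, for control replicate 1 with superovulated replicate 3. The labels do not say what a number marks, so a pairing is not established. The main fit leaves the number out, and a fit with the number as a block was also run. The other alternatives are quantile normalisation, leaving out dim probe sets, fitting 2 groups alone, using only runs with no open digit, an intensity trend with robust variances, and leaving out each array.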

Additional observations from a re-analysis of the deposited data

How the results depend on the processing

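None of the 39 fold changes of chemokine probe sets (13 in 3 comparisons) passed under any of the 15 alternatives, and the lowest adjusted p was 0.215. Leaving out dim probe sets drops CCL20, CXCL2 and the dimmest CCL3 probe set, and requiring no open digit run drops CXCL5 and the brighter CCL2 probe set, so these have no value there. Of 570 values 550 kept their direction and 20 turned it, each with 1 array left out, and the cause was not tested. With 1 array left out, log2 fold changes for superovulated minus control ran from -0.51 to 0.13 for CXCL12, from -0.22 to 0.059 for CCL4, and for the middle and dimmest CCL3 probe sets from -0.29 to 0.18 and from -0.052 to 0.031. For superovulated minus stimulated they ran from -0.11 to 0.33 for CCL8, -0.063 to 1.79 for CXCL8, -0.081 to 1.61 for CXCL2, -0.13 to 2.0 for CXCL5, -0.65 to 0.47 for CCL5, -0.13 to 0.75 for CXCL12, -0.015 to 0.10 for CCL20, and -0.071 to 1.27 and -0.14 to 1.14 for the dimmer and brighter CCL2 probe sets. Over all probe sets, calls with 1 array left out numbered 0 to 4 for stimulated minus control (1 with all arrays), 0 to 1 for superovulated minus control (0), 1 to 3 for superovulated minus stimulated (1) and 1 to 2 for the F test (1). With the replicate number as a block, 3 probe sets were called for stimulated minus control, and no chemokine call changed. The unadjusted p of CXCL5 in limma went from 0.025 to 0.0023 for superovulated minus control (limma adjusted p = 0.502 with the block). For stimulated minus control it went from 0.0789 to 0.01 (limma adjusted p = 0.455 with the block). Fitting the compared groups alone gave 1 call for superovulated minus control. Quantile normalisation and requiring no open digit run each gave 2 calls for superovulated minus stimulated. With 3 animals a group the intervals of CXCL5 and CCL2 are wide, and CCL20 and the dimmest CCL3 probe set are limited by background.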
